A study of Gallus gallus with 4 samples.

Results

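PAK1, STMN4 and MYO1H are 3 genes of the actin and microtubule cytoskeleton, found by their gene names among the 212 rows of a table of transcripts that differed between cranial and trunk neural crest cells of the chick embryo. They encode a kinase that acts on regulators of actin, a tubulin-binding protein and an unconventional myosin. All 3 names were present, with 1 row each, and no row shared its interval with another listed row. They were selected on function among rows whose cranial and trunk values and q were already known, so their differences between the groups are given as a description, without a test.

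Cranial cells came from embryos at Hamburger-Hamilton stage HH9+ that had received the NC1 enhancer of FoxD3 by electroporation, and trunk cells from embryos at stage HH14 that had received the NC2 enhancer. Living GFP-positive cells were sorted after dissection and dissociation, and the amplified cDNA of 2 libraries per group was sequenced. Axial level, stage and enhancer changed together, so their parts in a difference cannot be told apart. The cells of each group are those in which the electroporated enhancer was active, and the labels do not state whether the libraries came from separate pools of embryos.

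Neural crest cells leave the dorsal neural tube by losing their epithelial contacts and taking up migration, which depends on remodelling of actin and microtubules. PAK1, the p21-activated kinase, acts on LIM kinases and other regulators of actin turnover, protrusion and adhesion. STMN4 belongs to the stathmins, which bind free tubulin dimers and favour microtubule disassembly, and it is known mainly from neurons in mammals. MYO1H belongs to the class I myosins, single-headed motors that link actin filaments to membranes.

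The authors' deposited table holds 1 value per gene and group, read as FPKM (fragment counts scaled for the length of the transcript and the depth of sequencing). Spread between the 2 libraries of each group and depth per library are therefore unknown, and no SD can be given. Only rows that the authors called significant are listed, up to a q (adjusted p-value) of 0.0485 in the authors' deposited table. None was higher in trunk. Whether significant rows higher in trunk were left out of the table is not known here, so the shared direction is not read as a result. Of 13 neural crest markers, only SOX8 was found among the rows with a matched symbol. This does not check the label, since a marker at like levels in both groups could not enter the table. FOXD3 and SOX10 were not among the symbols listed, and a table of selected rows gives no level for them. In a list of 25 markers of other cell types that the sort could hold, 2 were listed, both epithelial. They are CDH1, under a protein entry name, and ESRP1, under an older symbol. Neither was found by symbol, and these are the 2 rows whose names were translated by hand. The 96 rows without a matched symbol were not searched, so the count depends on which names were translated. The epithelial markers EPCAM, KRT18, KRT19, TP63, GRHL2 and GRHL3 of the same list were not among the symbols listed. The share of all measured genes that entered the table is not known, so the count is not read as high or low. The authors' deposited table gives CDH1 (E-cadherin) 24.9 FPKM in the cranial and 5.65 FPKM in the trunk group, and the splicing regulator ESRP1 2.56 and 0.532 FPKM. The part of epithelial cells in the differences of PAK1, STMN4 and MYO1H was not tested.

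PAK1 was the most abundant of the 3 genes in both groups, and its trunk level equalled the median trunk level of the listed rows to 3 digits. In the authors' deposited table its level was 9.77 FPKM in the cranial and 2.72 FPKM in the trunk group. This is a 3.60-fold difference, or 1.85 on the log2 scale of cranial over trunk, with an implied standard error (SE) of 0.24. The implied SE is the log2 difference divided by the authors' test score, and it carries the error model of the authors' test rather than a spread measured here. On that reading the 95% interval of the PAK1 difference ran from 2.59-fold to 4.99-fold. Only rows that passed the authors' threshold are listed, so the intervals of all 3 genes leave out equal levels by selection. Their coverage after that selection is not known. The authors' deposited table gives a p of 1.93e-14 and a q of 1.37e-11 for PAK1. The row covers chromosome 1 from 197983480 to 198060141 (identifier ENSGALG00000000681), a locus of 76.7 kb. In bulk RNA a change in RNA per cell cannot be told apart from a change in the share of cells that make it.

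STMN4 ranked number 195 of the 212 rows by cranial level and number 15 from the bottom by trunk level. The authors' deposited table gives a level of 2.36 FPKM for the cranial and 0.159 FPKM for the trunk group. The difference was 14.9-fold, a log2 value of 3.89 with an implied SE of 1.02. The implied 95% interval was correspondingly wide, from 3.71-fold to 59.6-fold. The authors' deposited table gives a p of 0.000140 and a q of 0.00821 for STMN4. The row covers chromosome 3 from 108144578 to 108151402 (identifier ENSGALG00000016597), a compact locus of 6.83 kb.

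MYO1H had the lowest level of the 3 genes in both groups and the largest ratio between them. Its value in the authors' deposited table was 1.46 FPKM for the cranial and 0.0589 FPKM for the trunk group. Only 1 of the 212 rows had a lower trunk value than MYO1H, which ranked as number 2 from the bottom. The ratio was 24.9-fold, a log2 difference of 4.64 with an implied SE of 1.23. Its implied 95% interval ran from 4.65-fold to 133-fold. The authors' deposited table gives a p of 0.000171 and a q of 0.00963 for MYO1H. The row covers chromosome 15 from 6898714 to 6966844 (identifier ENSGALG00000005122), a locus of 68.1 kb. The build of these coordinates is not settled, since the submitters' processing notes name galGal4 while other rows of the table use sequence names of an earlier assembly.

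**Figure D1:**
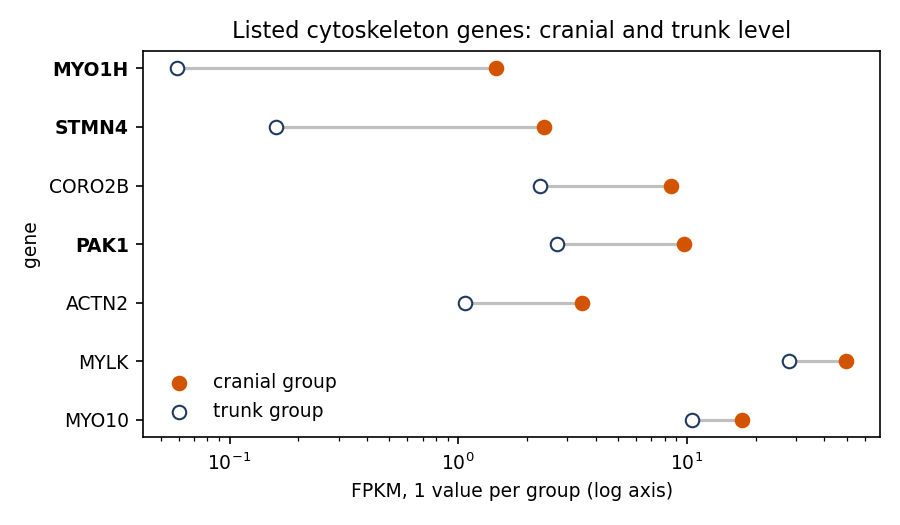
FPKM on a log axis for PAK1 and the 6 listed genes of the cytoskeleton lists, with 1 filled point for the cranial group and 1 open point for the trunk group, joined by a line, and no error bars because the table has 1 value per group. The trunk points of MYO1H (0.0589 FPKM) and STMN4 (0.159 FPKM) lie far to the left of that of PAK1 (2.72 FPKM), and each cranial point lies to the right of its trunk point.

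The 3 genes lay farther apart in the trunk than in the head on the per-length FPKM scale. The cranial level of PAK1 was 4.13 times that of STMN4 and 6.67 times that of MYO1H, computed from the authors' deposited table. In the trunk group the same ratios of level were 17.1 and 46.1, from the authors' deposited table. The trunk level of PAK1 was 1.15 times the cranial level of STMN4 in the authors' deposited table. The order of level was PAK1, STMN4, MYO1H in both groups, and whether neighbours in this order differ beyond the spread of libraries cannot be stated from 1 value per group.

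By ratio, the order of the genes was the reverse of their order by difference in FPKM. The difference in level was 7.05 FPKM for PAK1, 2.21 FPKM for STMN4 and 1.40 FPKM for MYO1H, from the authors' deposited table. All 3 genes passed a q of 0.05, as did 100% of listed rows, since the table holds no others. At least 2-fold differences were given for all 3 genes and for 81.6% of listed rows of the authors' deposited table. STMN4 and MYO1H, but not PAK1, also exceeded 4-fold and 8-fold, limits passed by 54.2% and 26.9% of listed rows of the authors' deposited table. MYO1H alone of the 3 exceeded 16-fold, with 10.8% of listed rows of that table. With 1 FPKM added to both values, at least 2-fold differences remained for all 3 genes and for 75.9% of listed rows. Of the 3 genes, PAK1 had a q under 0.001, as had 38.7% of listed rows of the authors' deposited table. These shares stand beside values that chose the genes, and nothing is read from the comparison.

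**Figure D2:**
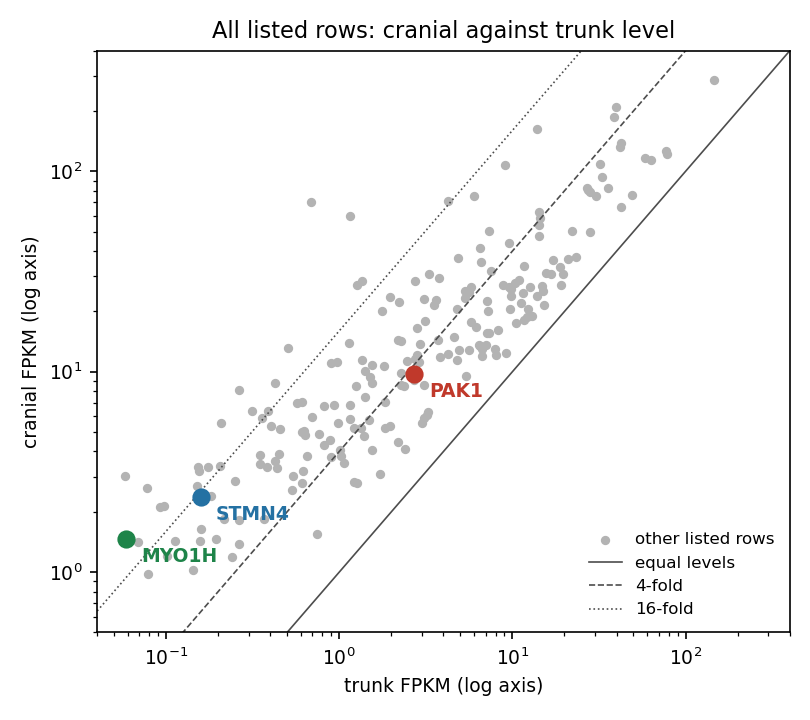
Cranial against trunk FPKM, both on log axes, for the 212 listed rows, with lines of equal level, 4-fold and 16-fold difference. PAK1 lies in the middle of the cloud just under the 4-fold line, STMN4 near the 16-fold line and MYO1H above it at the left edge, with a trunk level of 0.0589 FPKM.

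Adding 1 FPKM to both values, which limits the weight of a denominator near 0, removed most of the distance between the genes. The log2 difference became 1.53 for PAK1, 1.54 for STMN4 and 1.22 for MYO1H, or 2.90-fold, 2.90-fold and 2.33-fold. The ratio of MYO1H thus shrank by a factor of 10.7, that of STMN4 by 5.12 and that of PAK1 by 1.24. PAK1 and STMN4 had the same log2 difference at an added amount of 1.005 FPKM, and PAK1 and MYO1H at 0.602 FPKM. MYO1H fell below STMN4 once more than 0.117 FPKM was added. The median over the 212 rows moved from 2.12 to 1.51 on the log2 scale with 1 FPKM added. PAK1 and STMN4 then stood at about the median of the table and MYO1H below it. With 1 FPKM added, however, a ratio cannot exceed the cranial level plus 1. At its cranial level of 1.46 FPKM, MYO1H could not reach the median of 2.86-fold at any trunk level. Its place below the median was thus fixed by its low cranial level, which also limits STMN4.

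Among the 212 rows, MYO1H ranked number 8 by ratio as deposited and number 139 with 1 FPKM added to the values of the authors' deposited table. STMN4 moved from number 24 to number 101, while PAK1 moved from number 125 to number 102. The rank of PAK1 and STMN4 in the adjusted order rests on log2 values that differ in the third decimal. The adjusted rank of MYO1H is held down by the limit that its cranial level sets on the adjusted ratio.

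**Figure D3:**
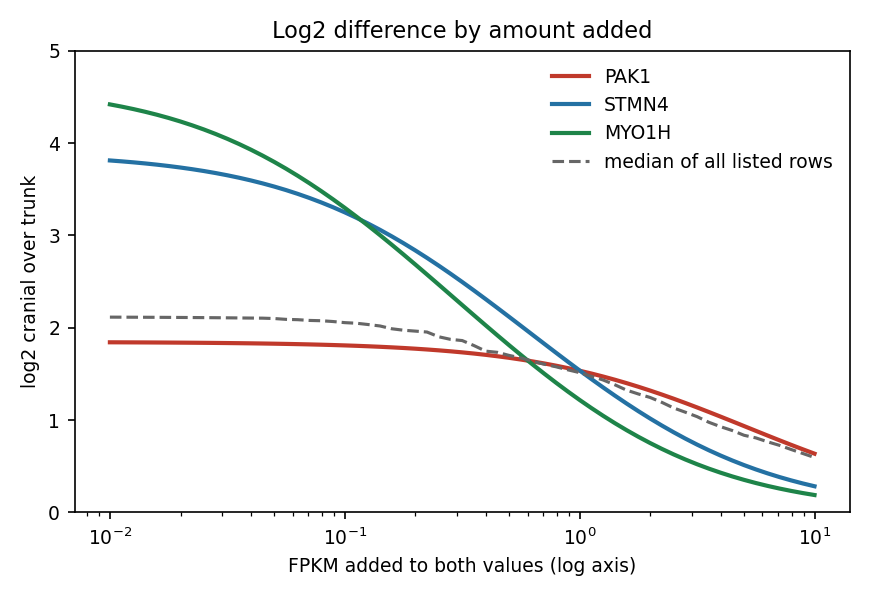
Log2 of cranial over trunk against the FPKM added to both values (log axis), as 1 line each for PAK1, STMN4 and MYO1H and a dashed line for the median of all listed rows. The lines of STMN4 and MYO1H start at 3.81 and 4.42 with 0.01 FPKM added and fall steeply, and those of PAK1 and STMN4 meet at 1.005 FPKM.

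The statistical standing of the genes ran opposite to the size of their ratios. PAK1 had the 9th smallest q of the 212 rows of the authors' deposited table, whereas STMN4 and MYO1H stood at number 127 and number 134. The implied SE of the log2 difference was 4.24 times as large for STMN4 as for PAK1, and 5.11 times as large for MYO1H. PAK1 stood at number 42 from the smallest implied SE, STMN4 at number 200 and MYO1H at number 208. The median implied SE was 0.76 over the 63 rows with a trunk level under 1 FPKM, which include STMN4 and MYO1H, and 0.36 over the other 149 rows of the authors' deposited table. Over the 212 rows, the Spearman correlation of the log2 difference with its implied SE was 0.90, and that of the trunk level with the implied SE was -0.73. These are descriptions across rows that share libraries, and the implied SE contains the log2 difference by construction. A row with an implied SE that is large beside its difference could not pass the authors' threshold and is not in the table.

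**Figure D4:**
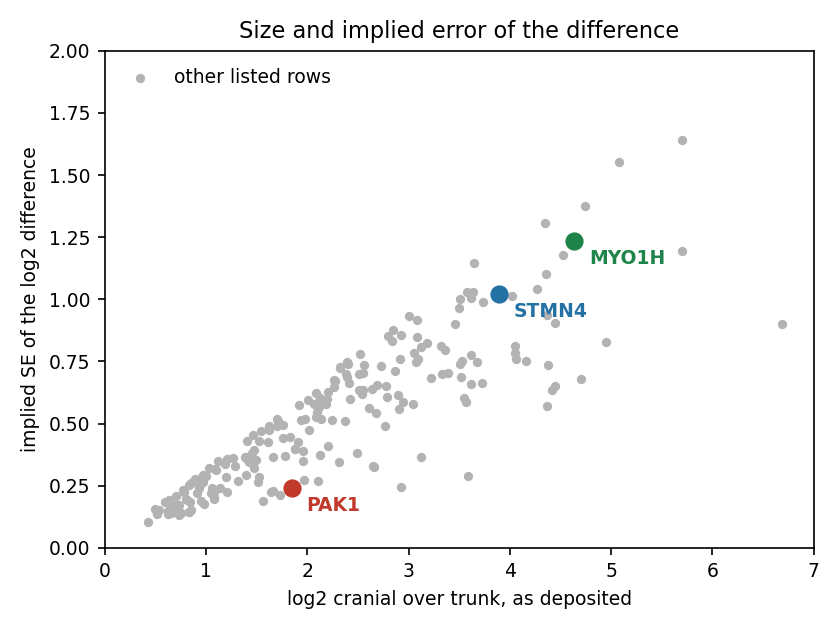
Implied SE of the log2 difference against the log2 difference as deposited for the 212 listed rows. PAK1 (log2 1.85, implied SE 0.24) lies along the lower edge of the cloud, and STMN4 (3.89 and 1.02) and MYO1H (4.64 and 1.23) near its upper edge.

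Rows of like abundance put these values in context. PAK1 had 48 other rows within 1.5-fold of its cranial level in the authors' deposited table, with a median difference of 4.31-fold. Of these, 31 had a larger ratio than PAK1 and 17 a smaller one, but 40 had a larger implied SE and only 1 had a lower q. STMN4 had 26 such rows, of which 9 had a larger ratio, 22 a smaller implied SE and 17 a lower q. Their median difference was 9.35-fold in the authors' deposited table. MYO1H had 16 such rows in the authors' deposited table, and none of them had a larger ratio or a larger implied SE, but 10 had a lower q. Their median difference was 8.79-fold and their largest 23.1-fold, against 24.9-fold for MYO1H.

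Likeness of level was taken as Euclidean distance over the log2 cranial and log2 trunk values, which is a comparison over 2 values per gene. Among the rows with a matched symbol, those nearest to PAK1 were ESRP2, ADCY8 and COL27A1. ESRP2, an epithelial splicing regulator, was at 11.2 and 2.87 FPKM in the authors' deposited table, a distance of 0.22. ADCY8, an adenylyl cyclase, and COL27A1, a fibrillar collagen, lay at distances of 0.25 and 0.26. Over all rows, 2 without a matched symbol were nearer to PAK1 than ESRP2, the closest of them at 0.075. Among rows with a matched symbol, STMN4 was nearest to the ephrin receptor gene EPHA10, at 2.68 and 0.150 FPKM in the authors' deposited table and a distance of 0.20. The next with a symbol were the homeobox gene LHX5 at 0.50, whose row shares its interval with another row and is uncertain, and the glutamate receptor gene GRM3 at 0.53. Over all rows, only the row listed as FAM5B was nearer to STMN4 than EPHA10, at 0.19. The FAM5B row also shares its interval with another row and is uncertain. For MYO1H the nearest rows with a matched symbol were KSR2, SYCP1 and NOS1, at distances of 0.71, 0.83 and 0.91. The rows of KSR2 and NOS1 share 1 interval and are uncertain. Over all rows, MYO1H was nearest to the row listed as KIAA1045, at 1.42 and 0.0692 FPKM in the authors' deposited table and a distance of 0.24.

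Other genes of the cytoskeleton were counted among the listed rows. Of 336 genes in 4 lists (stathmins and microtubule proteins, myosins with their regulators, actin-binding proteins, intermediate filaments), 4 were listed by symbol and 6 when protein entry names were translated. Of the 336 entries, 307 are symbols of the chicken gene table, and the share of all measured genes that entered the table is not known, so the count is not read as high or low. PAK1 is in none of these lists. All 6 were higher in cranial cells, as was each row of the table, and their median log2 difference was 1.80 against 2.12 over all 212 rows. Apart from STMN4 there was no listed row among the 93 stathmins, tubulins and microtubule proteins. The 35 genes of intermediate filaments had 0 listed rows. A further 96 rows were not matched to a symbol by the name matching used here and were not searched. Some of them carry protein entry names, so these counts cover the matched rows only.

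Within the gene families, MYO1H was the 1 listed gene of 8 class I myosins in the chicken gene table, STMN4 of 4 stathmins and PAK1 of 6 p21-activated kinases. Each is the gene chosen from the listed rows, so these counts are no finding about the families. The other 7 class I myosins, 3 stathmins and 5 kinases have no value here, and their absence from the list does not show equal levels in cranial and trunk cells. Reads that fit more than 1 member of a family could not be checked.

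Among the motor proteins and their regulators, MYO10 and MYLK were listed beside MYO1H. MYO10, the unconventional myosin of filopodia, which is needed for cranial crest migration in Xenopus, had 17.5 FPKM in the cranial and 10.5 FPKM in the trunk group of the authors' deposited table. Its difference was 1.66-fold (log2 0.73, implied SE 0.17), and the authors' deposited table gives q = 0.00176. MYLK, the kinase that phosphorylates the regulatory light chain of myosin II, was more abundant in both groups than PAK1 and the other 5 listed genes of these lists, with values of 49.8 and 27.9 FPKM in the authors' deposited table. Its difference was 1.78-fold (log2 0.84, implied SE 0.15), with q = 2.47e-06 in the authors' deposited table. MYO1H thus had the largest and MYO10 the smallest ratio of PAK1 and the 6 listed genes as deposited, although with 1 FPKM added the distance between these myosins shrank from 4.64 against 0.73 to 1.22 against 0.68 on the log2 scale.

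Among the actin-binding proteins, CORO2B and ACTN2 were listed. CORO2B, a coronin, had 8.55 FPKM in the cranial and 2.28 FPKM in the trunk group of the authors' deposited table. Its levels and ratio were near those of PAK1, although ESRP2, ADCY8 and COL27A1 were nearer to PAK1 in level. The authors' deposited table gives q = 0.000708 for CORO2B. Its difference was 3.74-fold (log2 1.90) with an implied SE of 0.42 against 0.24 for PAK1. ACTN2, the alpha-actinin known from the Z-discs of striated muscle, had 3.49 and 1.07 FPKM in the authors' deposited table. That is a ratio of 3.26-fold (log2 1.71, implied SE 0.52), and the authors' deposited table gives q = 0.0381. After adding 1 FPKM, CORO2B stood at 1.54 on the log2 scale, as did STMN4, and ACTN2 at 1.12.

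The 3 genes lie on different chromosomes, and none of their rows overlapped another listed row. The nearest listed row to STMN4 was EFR3B, which encodes a membrane protein that anchors a lipid kinase, 22.7 kb away on chromosome 3, with a cranial value 3.44 times its trunk value in the authors' deposited table. MYO1H had a row known only by a protein accession 78.8 kb away, with 5.92 and 0.694 FPKM in the authors' deposited table, and the transporter gene ABCB9 at a distance of 1622 kb on its other side. PAK1 had the deubiquitinase gene USP35 at 183 kb, with 1.46 and 0.195 FPKM in the authors' deposited table. In the gene order of assembly GRCg7b, AQP11 and GDPD4 flank PAK1, TRIM35 lies beside STMN4, and FOXN4 and KCTD10 flank MYO1H. None of these 5 genes was listed under its symbol.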

How the data were processed

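RNA from sorted chick neural crest cells was sequenced in 2 cranial and 2 trunk libraries. The submitters' processing notes name TopHat, Cufflinks, Cuffdiff 2.1 and galGal4, without order or role. The values deposited by the authors are 1 per group and were read as FPKM, the unit Cuffdiff writes; per the file headers they are only values. The authors also deposited a log2 fold (trunk over cranial, turned round here), a test score, a p-value and a q-value per row. No values per library were used, so depth and its precision are unknown, and the designs written for FPKM per library were not used.

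The implied SE is the log2 difference divided by the score. In all 193 rows with a p of at least 1e-10, p differed by under 1% from the two-sided p of the score under a normal distribution. Intervals are 95%. Gene names were matched to the GRCg7b gene table by symbol, protein entry name, gene number or synonym (114 rows). A further 2, those of CDH1 and ESRP1, were translated by hand. Named genes are the 3 genes, all listed members of the cytoskeleton lists, the 3 rows with a symbol nearest in level to each, and the nearest listed rows on the chromosome. Genes and lists were chosen with earlier results of these data known, and 1 further list is not reported here. Amounts of 0.1, 1 and 5 FPKM, a centring, filters and name matching were tried as alternatives. Calculations used Python 3.11.15, pandas 2.3.3 and NumPy 2.4.6. Their arithmetic was tested on simulated data, which cannot test whether the authors' score is the log2 difference over its SE.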

Additional observations from a re-analysis of the deposited data

How the results depend on the processing

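The log2 difference of PAK1 was 1.81 with 0.1 FPKM added, 1.53 with 1 FPKM and 0.94 with 5 FPKM. For STMN4 the values were 3.25, 1.54 and 0.51, and for MYO1H 3.30, 1.22 and 0.35. With the median of the other listed rows set to 0, a shift of about 2.12 that holds only for a table of selected rows, PAK1 changed sign to -0.27 while STMN4 stood at 1.78 and MYO1H at 2.52. Of 9 alternatives for the rank by ratio, 7 stayed within 1.5 times. The exceptions were STMN4 and MYO1H with 1 FPKM added. The count of 4 listed rows of the cytoskeleton lists was 4 at a q under 0.01 and 4 with at least 1 FPKM in cranial cells, and it was 6 once entry names were translated. No paired analysis was possible because libraries have no separate values here and only letter A occurs in both groups. Leaving out libraries was not run for the same reason. With depth unknown, the counting error of the low trunk values of STMN4 and MYO1H could not be worked out apart from the implied SE.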

Other observations

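Further listed genes with known links to the cytoskeleton are not in the lists above, and no test was made of them since they were chosen with their values in view. VILL, a relative of the actin-severing protein villin, had 5.02 FPKM in the cranial and 0.607 FPKM in the trunk group of the authors' deposited table (q = 2.38e-05). Its difference was 8.26-fold, or 3.74-fold with 1 FPKM added. ENC1, an actin-binding kelch protein, was much more abundant, with 58.2 and 14.4 FPKM and a ratio of 4.03-fold in the authors' deposited table (q = 0.0295). NCKIPSD, which binds the adaptor NCK and takes part in actin assembly, had a cranial level of 11.5 FPKM and a ratio of 2.41-fold in the authors' deposited table. SH3PXD2B, a scaffold of podosomes, stood at 5.90 FPKM with a ratio of 1.91-fold in the authors' deposited table. AGBL1, of a family of carboxypeptidases that act on tubulin, had 1.19 and 0.239 FPKM in the authors' deposited table (q = 0.0480), 4.99-fold as deposited and 1.77-fold with 1 FPKM added. TNNI1, a troponin of slow skeletal muscle, had 6.75 and 0.813 FPKM in the authors' deposited table, and like ACTN2 it is known mainly from muscle.

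The ratio of p to q in the authors' deposited table was 0.141% for PAK1, 1.70% for STMN4 and 1.77% for MYO1H, and 3.01% for the row with the largest q. If the authors' q is a Benjamini-Hochberg value, which the headers do not state, this ratio is the share of all tests with a p at least as small. The ratio never fell as p rose among the listed rows with a q above 0.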
